A study of Mus musculus with 8 samples.

Results

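The CD300 and TREM receptors are 2 families of cell-surface proteins of myeloid cells, and 7 of their genes were followed here across 4 groups of CD11b+Gr-1+ cells: Cd300a, Cd300lb, Cd300ld, Cd300lf, Trem1, Trem3 and Treml2. Members were found by taking every probe set that the platform annotation assigns to 1 gene only, that gene being one of the 7. This gave 12 probe sets out of 45101 on the array, and 7 genes out of 18194. All 7 genes passed the filter on low values, as did 11 of the 12 probe sets. The exception was 1 of the 4 Treml2 probe sets, 1419837_at, which stayed between 2.05 and 2.81 on the log2 scale on the 8 arrays.

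The cells came from C57BL/6J mice that carried HDC-EGFP, a transgenic reporter of Hdc, the gene whose enzyme produces histamine from histidine. The wild-type groups had this reporter alone and the knockout groups had HDC-EGFP/HDC-KO. Bone marrow cells, gated as HDC-expressing, were taken from 3 mice per genotype aged 3 to 4 months with no treatment named. Tumor cells were taken from 5 mice per genotype aged 7 months, from 10 to 12 colon tumors, after azoxymethane (AOM), a carcinogen, 10 days of dextran sodium sulfate (DSS), which injures the colon lining, and a wait of 22 to 24 weeks. Tumor RNA was pooled over mice and pooling of the marrow RNA is not stated, so "pool" below stands for the RNA of a group. The design text calls the tumor mice WT and HDC-KO without naming the reporter. The tissues differ in age and treatment as well as in site, and these cannot be told apart. No EGFP gate is named for tumor cells, so whether the gates also differed is not known here.

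Each group was measured on 2 arrays (Affymetrix) that the design text calls technical replicates. Adjusted p-values below therefore compare 4 groups against the spread between technical arrays, not against the spread between mice. All levels are log2 values normalized by the authors with GCRMA. A mean under log2 5 is treated as background. A gene is called when its limma Benjamini-Hochberg adjusted p is under 0.05 and its difference is at least 2-fold.

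Both families consist of membrane proteins with a single immunoglobulin-like domain outside the cell. CD300 receptors recognise lipids, phosphatidylserine on dying cells among them. Members with a long tail, such as CD300a and CD300lf, carry inhibitory tyrosine motifs that recruit phosphatases. Members with a short tail pair with adaptors such as DAP12 or the Fc receptor gamma chain, which signal through the kinase Syk. TREM1 and TREM3 pair with DAP12 and amplify inflammatory signalling in neutrophils and monocytes. In bulk RNA, fewer cells of a type and less RNA per cell cannot be told apart.

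The label check and the makeup of the pools bear on every direction below. Hdc fell 10.2-fold in HDC-KO marrow, from 13.18 ± 0.05 to 9.83 ± 0.06 (mean ± SD, n = 2 arrays) by its brighter probe set and 24.3-fold by the other, from 12.07 to 7.47. By the brighter one, in the pool labelled HDC-KO tumor, Hdc was 13.03 ± 0.01, against 13.24 ± 0.01 in wild-type tumor, so the target gene went against that pool's label. Itgam, which encodes CD11b, had means of 12.23, 12.38, 11.93 and 11.25 in wild-type marrow, HDC-KO marrow, wild-type tumor and labelled HDC-KO tumor. The mean log2 value of 10 neutrophil markers was 13.42 to 13.88 on every array. Of these, 3 (Mmp8, Mmp9 and Itgam) were called lower in labelled HDC-KO tumor than in HDC-KO marrow, as were 15.4% of all genes. No neutrophil marker was called in the other comparisons of 2 pools. The mean log2 value of 9 monocyte and macrophage markers was 6.76 to 7.07 on the marrow arrays, 10.41 to 10.47 on the wild-type tumor arrays and 11.78 to 11.79 on the labelled HDC-KO tumor arrays. For 10 intestinal epithelial markers it was 3.17 to 3.42, 8.16 to 8.28 and 10.90 to 10.98 in the same order. For 7 genes of early granulocyte precursors it was 11.41 to 11.74 in marrow, 9.66 to 9.68 in wild-type tumor and 5.85 to 6.10 in labelled HDC-KO tumor. The marrow pools differed from each other in 5 basophil and mast cell markers, at 7.18 to 7.31 in the wild type and 5.15 to 5.17 in HDC-KO. They also differed in the mean of 5 B and plasma cell markers, at 8.14 to 8.26 and 6.52 to 6.56. Those 5 did not move together. Igha, Jchain and Ighm were called lower in HDC-KO, by 50.3-fold, 14.1-fold and 2.11-fold. Cd79b was called 2.57-fold higher, and Ms4a1 was not called. Of the 9 monocyte and macrophage markers, 4 were called between the marrow pools, where 3.82% of all genes were. In HDC-KO, Adgre1 was 3.30-fold and Cd14 2.18-fold lower and C1qb 2.19-fold higher, while Mertk rose with both means under log2 5. Stromal markers were under log2 5 in all pools, 6 of 6. The part of these shifts in cell makeup in the results below was not tested.

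The members did not move as a block. Cd300ld, an activating CD300 receptor, was about as low in both tumor pools and 15.9-fold to 18.7-fold below marrow. Cd300a, an inhibitory receptor, was 2.83-fold higher in the labelled HDC-KO tumor pool than in wild-type tumor, whereas Treml2 was 3.79-fold lower there. Cd300lf and Cd300lb were not called in any of the 5 contrasts. Between the marrow pools, which differ at least 10.2-fold in Hdc by either probe set, none of the 7 members was called, where 3.82% of all tested genes were.

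**Figure D1:**
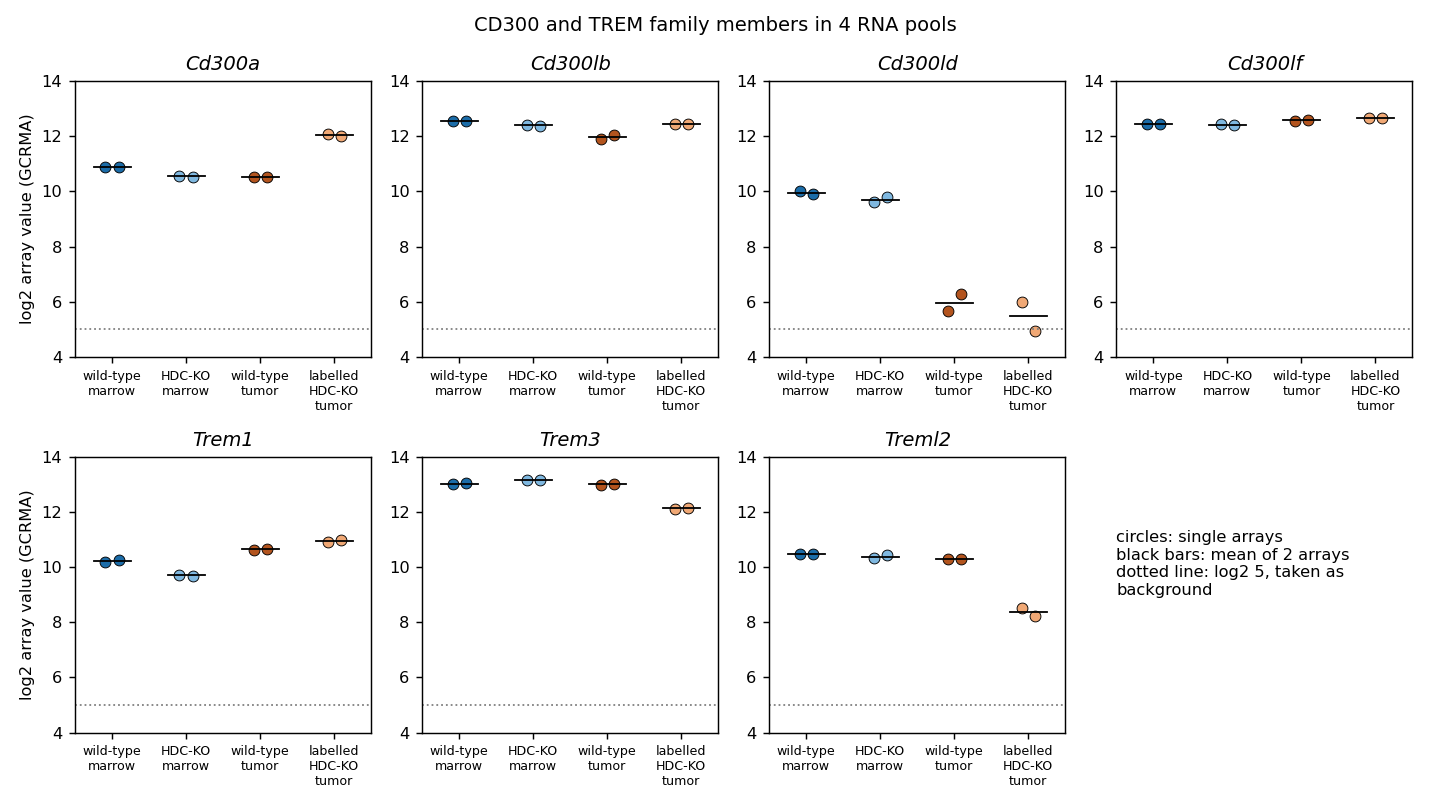
Log2 array values (vertical axis) of the 7 members, each by its brightest probe set, on the 2 arrays of each of 4 pools (horizontal axis); circles are arrays, bars the mean of 2, and the dotted line is log2 5. Cd300ld drops from 9.61 or more in marrow to 6.27 or less in tumor, while Cd300lf stays between 12.42 and 12.67.

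Cd300ld was lower in both tumor pools than in the marrow pools they were compared with. On the wild-type marrow arrays it read 10.02 and 9.89, and on the HDC-KO marrow arrays 9.61 and 9.79. Tumor arrays read 5.67 and 6.27 in the wild type, and 6.01 and 4.93 in the pool labelled HDC-KO. All 4 marrow values lay above all 4 tumor values, and the arrays of each tumor pool differed from each other by more than the tumor pool means did. Its log2 difference was -3.99 ± 0.36 (SE, n = 2 arrays per pool) in the wild type (limma, adjusted p = 0.00021) and -4.23 ± 0.36 in the HDC-KO pools (limma, adjusted p = 5.5e-05). Between genotypes the log2 difference was -0.26 ± 0.36 in marrow and -0.50 ± 0.36 in tumor, neither called. The tumor genotype difference hung on single arrays. It was called at -1.03 without array 1 of the labelled HDC-KO tumor pool and was 0.04 without array 2.

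Cd300ld has relatives beside it in the CD300 gene cluster, and the windows before their start sites were compared. Printed from RefSeq (GRCm38.p6) are the 250 bases before the start site of Cd300ld and of its relative Cd300ld3. They are shown because the fall of Cd300ld rests on 1 probe set. Transcribed sequences were not compared. The Cd300ld window is chr11:114989887-114990136 and that of Cd300ld3 is chr11:115048331-115048580, both on the minus strand. Capitals mark GAGGAAGT, the letters of a binding motif of PU.1, a transcription factor of myeloid cells.
Cd300ld: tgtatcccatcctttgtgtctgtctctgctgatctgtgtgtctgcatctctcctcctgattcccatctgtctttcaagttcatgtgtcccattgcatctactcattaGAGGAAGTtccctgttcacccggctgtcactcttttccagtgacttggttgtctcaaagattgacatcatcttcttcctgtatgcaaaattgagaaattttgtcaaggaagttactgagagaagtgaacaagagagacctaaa
Cd300ld3: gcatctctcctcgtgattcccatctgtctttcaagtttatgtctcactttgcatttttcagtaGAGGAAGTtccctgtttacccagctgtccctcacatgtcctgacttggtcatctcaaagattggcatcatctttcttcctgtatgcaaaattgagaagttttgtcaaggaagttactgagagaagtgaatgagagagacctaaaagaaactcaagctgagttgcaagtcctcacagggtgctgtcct
Over 210 aligned columns these windows were 88.1% identical. The windows of Cd300ld4 and Cd300ld5 were each 87.1% identical to that of Cd300ld over 209 columns. Cd300ld3, Cd300ld4 and Cd300ld5 were not analysed here, and whether the Cd300ld probe set also reads them was not tested. Their 3 windows hold GAGGAAGT too. Searched on both strands (the other reads ACTTCCTC), these letters occur in 2.44% of 32851 windows of the same length.

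RefSeq windows were matched for 5 of the 7 members, all but Trem3 and Treml2. Among the 5, GAGGAAGT was found in Cd300ld alone. The letters TTGCNNAA of a C/EBP motif (TTNNGCAA on the other strand), which are in 9.56% of all windows, were found in Cd300a alone, and those of AP-1, TGANTCA on both strands, in none. AP-1 letters are in 6.75% of all windows, and no member window holds more than 1 of these motifs. The Cd300a window, shown because Cd300a was called in 3 of the 5 contrasts, is chr11:114889791-114890040 on the plus strand, with the C/EBP letters in capitals.
Cd300a: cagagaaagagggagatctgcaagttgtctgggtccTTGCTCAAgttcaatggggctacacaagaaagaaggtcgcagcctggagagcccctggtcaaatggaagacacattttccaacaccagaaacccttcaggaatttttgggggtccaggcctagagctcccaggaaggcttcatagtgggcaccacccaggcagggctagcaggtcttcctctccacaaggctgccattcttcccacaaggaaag
These are matches of letters only.

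Of the inhibitory CD300 receptors, Cd300a changed and Cd300lf varied little. Cd300a read 10.88 and 10.90 on the wild-type marrow arrays, 10.55 and 10.54 on the HDC-KO marrow arrays, 10.52 and 10.53 on the wild-type tumor arrays and 12.07 and 11.99 on the labelled HDC-KO tumor arrays. The last pair lay above the other 6 arrays, and the other 3 pools lay close together. Cd300a rose by 1.50 ± 0.05 on the log2 scale between the tumor pools (limma, adjusted p = 2.2e-06) and by 1.48 ± 0.05 from HDC-KO marrow to labelled HDC-KO tumor (limma, adjusted p = 8.6e-07). Its dimmer probe set, 1445292_at, gave log2 differences of 1.11 and 0.89 for these 2 comparisons, of which the first was called with every probe set tested and the second was not. That probe set had a mean under log2 5 in HDC-KO marrow and in wild-type tumor, so both rises are bounded only at 1.66-fold or more.

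Cd300lf, which binds phosphatidylserine and in the mouse also serves murine norovirus as its receptor, read 12.42 to 12.44 on the 4 marrow arrays. It read 12.55 and 12.59 in wild-type tumor and 12.66 and 12.67 in labelled HDC-KO tumor. The tumor values lay above the marrow values by a small margin. Its largest difference over the 4 pairwise comparisons was 0.25 ± 0.05 on the log2 scale, from HDC-KO marrow to labelled HDC-KO tumor, which is 1.19-fold and under the size threshold (limma, adjusted p = 0.0027).

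Cd300lb, an activating receptor that pairs with DAP12, varied little more. It read 12.56 and 12.57 in wild-type marrow, 12.42 and 12.38 in HDC-KO marrow, 11.91 and 12.04 in wild-type tumor and 12.43 and 12.45 in labelled HDC-KO tumor. Wild-type tumor was the lowest pool, and its arrays did not overlap those of any other pool. The difference from wild-type marrow was -0.59 ± 0.06 on the log2 scale, 1.50-fold (limma, adjusted p = 0.00033), and the difference between tumor pools was 0.46 ± 0.06 (limma, adjusted p = 0.00052). Neither reached 2-fold.

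Trem1, an amplifier of inflammation in neutrophils and monocytes, was higher in tumor, but its 2 probe sets gave unlike sizes. The brighter one, 1447284_at, read 10.19 and 10.25 in wild-type marrow, 9.72 and 9.69 in HDC-KO marrow, 10.62 and 10.67 in wild-type tumor and 10.89 and 10.97 in labelled HDC-KO tumor. The other, 1460282_at, read 8.29 and 8.39, 7.38 and 7.61, 10.84 and 10.86, and 10.85 and 10.86 in the same order. Both probe sets put the pools' marrow arrays below the tumor arrays with no overlap, and both were lowest in HDC-KO marrow.

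From wild-type marrow to wild-type tumor the brighter Trem1 probe set differed by 0.43 ± 0.06 on the log2 scale, 1.34-fold, and was not called (limma, adjusted p = 0.0011). With every probe set tested, the other one rose by 2.51 ± 0.09, or 5.70-fold (limma, adjusted p = 3.5e-06). In the HDC-KO pools the rise was 2.34-fold by the brighter probe set (1.23 ± 0.06, limma, adjusted p = 3.1e-06) and 10.3-fold by the other. The mean of both probe sets was called in the wild type as well, at 1.47. Which probe set follows Trem1 more closely was not tested. Between genotypes Trem1 was not called in either tissue. The marrow difference was -0.51 ± 0.06 by one probe set and -0.85 ± 0.09 by the other, both with an adjusted p under the threshold and a size under 2-fold.

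**Figure D2:**
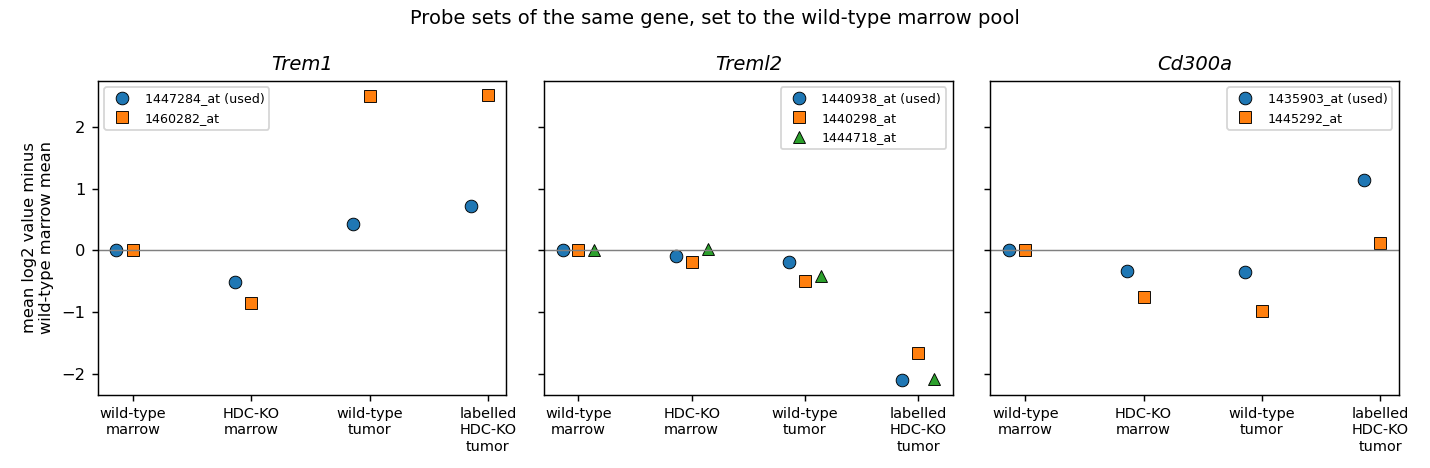
Mean log2 value of each probe set in each pool (horizontal axis) minus that probe set's mean in wild-type marrow (vertical axis), for the 3 members with several probe sets above the filter; circles mark the probe set used for the gene. The Trem1 probe sets part in tumor (0.43 against 2.51 in the wild type), while the 3 of Treml2 all lie lowest in labelled HDC-KO tumor.

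Trem3, a DAP12-paired relative of Trem1 that is a working gene in mice and a pseudogene in humans, read 13.02 and 13.03 in wild-type marrow and 13.14 and 13.15 in HDC-KO marrow. In wild-type tumor it read 12.99 and 13.02, and in labelled HDC-KO tumor 12.10 and 12.15. The latter pool stood below the others. The fall from HDC-KO marrow was 2.03-fold (-1.02 ± 0.05 on the log2 scale, limma, adjusted p = 3.3e-06), just past the size threshold, and it was -0.997 and not called without array 1 of the labelled HDC-KO tumor pool. Against wild-type tumor the difference was -0.88 ± 0.05, or 1.84-fold, and was not called.

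Treml2, also named TLT-2, is a receptor of neutrophils, macrophages and B cells. By its brightest probe set it read 10.49 and 10.47 in wild-type marrow, 10.31 and 10.44 in HDC-KO marrow, 10.30 and 10.28 in wild-type tumor and 8.52 and 8.22 in labelled HDC-KO tumor. The 6 marrow and wild-type tumor arrays lay close together, and both labelled HDC-KO tumor arrays lay below all of them. Treml2 fell between the tumor pools by 1.92 ± 0.10 on the log2 scale (limma, adjusted p = 1.3e-05) and from HDC-KO marrow by 2.01 ± 0.10, which is 4.03-fold (limma, adjusted p = 5.1e-06). The 2 other probe sets above the filter gave -1.16 and -1.67 between the tumor pools, both called with every probe set tested. The second of these, 1444718_at, had a mean of 3.98 in labelled HDC-KO tumor, under log2 5, so its fall is bounded only at 1.57-fold or more. From wild-type marrow to wild-type tumor the first, 1440298_at, differed by -0.50 and 1444718_at by -0.42, against -0.19 by the brightest, and none was called.

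By comparison, the counts of members called were as follows, beside the share of all 8174 tested genes called. HDC-KO against wild-type marrow gave 0 of 7 members, against 3.82% of genes (1.8% higher, 2.02% lower), with 4 members at an unadjusted limma p under 0.05. Labelled HDC-KO against wild-type tumor gave 2 of 7, against 26% of genes, with Cd300a higher (as were 15.5% of genes) and Treml2 lower (10.5%). Wild-type tumor against wild-type marrow gave 1 of 7, Cd300ld, which was lower, against 16.4% of genes (11.6% higher, 4.81% lower). Labelled HDC-KO tumor against HDC-KO marrow gave 5 of 7, against 36.5% of genes, with Cd300a and Trem1 higher, as were 21.1% of genes, and Cd300ld, Trem3 and Treml2 lower, as were 15.4%. With all 13505 probe sets as rows of their own, the shares called were 3.72%, 24.4%, 15.9% and 36.3%. The median log2 difference of the 7 was -0.16, 0.10, -0.19 and 0.04 in these comparisons, where the medians of all genes were -0.00, 0.03, -0.03 and -0.02. With 7 members these shares do not set the families apart from the array as a whole.

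**Figure D3:**
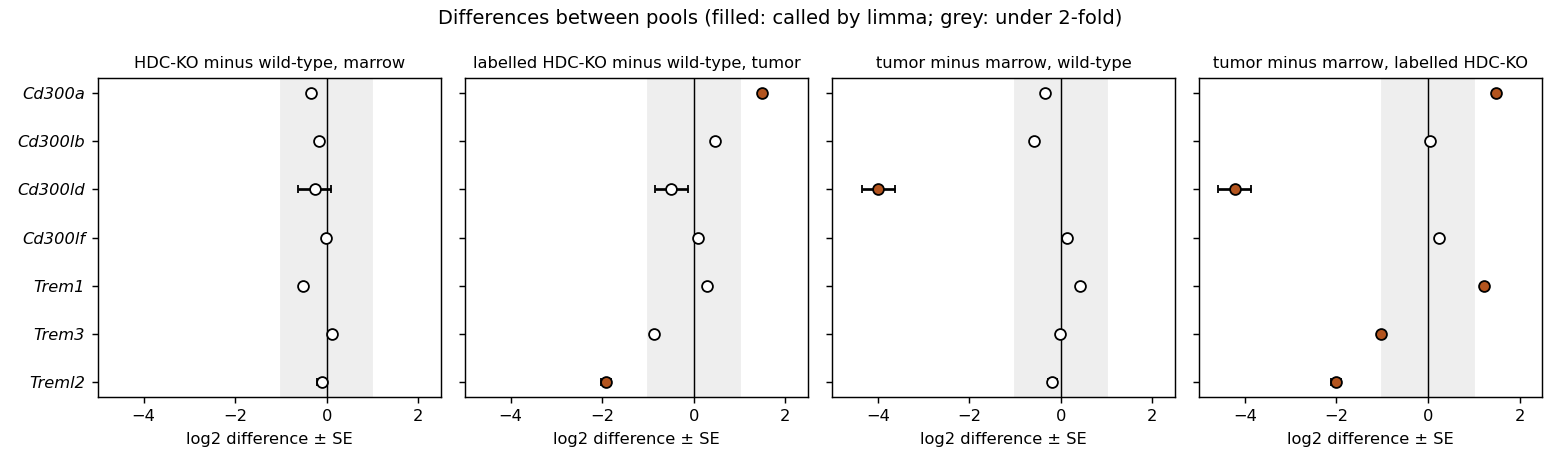
Log2 differences with limma standard errors (horizontal axis) of the 7 members (vertical axis) in 4 comparisons of pools; filled circles were called and grey marks differences under 2-fold. No circle is filled for HDC-KO against wild-type marrow, where differences run from -0.51 to 0.12, and 5 are filled for labelled HDC-KO tumor against HDC-KO marrow.

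Whether the genotype difference was the same in both tissues was tested directly, as tumor minus marrow. The difference of effects was called for 2 of 7 members, against 28.5% of all genes (16.8% higher, 11.7% lower) and 27.6% of all probe sets. It was 1.84 ± 0.07 on the log2 scale for Cd300a (limma, adjusted p = 7.6e-06) and -1.82 ± 0.15 for Treml2 (limma, adjusted p = 0.00011). The Treml2 value is that of its brightest probe set. With every probe set tested, 1440298_at of Treml2 gave -0.97 and was not called, and 1444718_at gave -1.69 and was called. Trem3 was just under the size threshold at -0.99 ± 0.07, and it was called at -1.11 with each array centred on its median. Trem1, at 0.80 ± 0.08, and Cd300lb, at 0.63 ± 0.08, had adjusted p-values under the threshold and were not called. These contrasts share their pools with the pairwise ones, so they are not separate evidence.

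Of the other CD300 and TREM genes listed, Cd300c2 and Treml4 were tested, and both rose between the tumor pools. Cd300lg, Trem2 and Treml1 were under log2 5 in all pools, and 8 more were not analysed here. Cd300c2, an activating CD300 receptor, had means of 8.99, 8.78, 9.38 and 11.04 in wild-type marrow, HDC-KO marrow, wild-type tumor and labelled HDC-KO tumor. Treml4, which pairs with DAP12 in macrophages and dendritic cells, had means of 9.52, 9.93, 9.58 and 11.47 in that order, and was 3.69-fold higher in labelled HDC-KO than in wild-type tumor. Like Cd300a, both stood highest in the labelled HDC-KO tumor pool. The same list held Pigr, Fcmr and Fcamr, immunoglobulin receptors that are not members of either family. Pigr, the epithelial carrier of immunoglobulin A, was 7.86-fold higher in labelled HDC-KO than in wild-type tumor. Fcmr, the immunoglobulin M receptor of B cells, was at least 8.32-fold higher there, and Fcamr was under log2 5 in all pools. Of the 4 tested genes on the whole list, none was called between the marrow pools by limma, although 4 had an unadjusted p under 0.05. All 4 were called higher between the tumor pools, as were 15.5% of all genes. Fcmr passed the filter only through labelled HDC-KO tumor, so its rise was set by the filter and adds nothing to this count. Pigr passed it only through tumor arrays.

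The main adaptors that carry the signal of short-tailed members varied little. Tyrobp, which encodes DAP12, had means of 14.02, 14.01, 13.90 and 14.05 over the pools in the order above, and Fcer1g, the Fc receptor gamma chain, 13.35, 13.41, 13.36 and 13.35. Of 3 adaptors, Hcst, which encodes DAP10, was the 1 called, 2.64-fold lower in labelled HDC-KO tumor than in HDC-KO marrow. In the other comparisons of 2 pools no adaptor was called by limma, with 0, 2 and 1 at an unadjusted p under 0.05 for marrow genotype, tumor genotype and wild-type tissue. Among all genes, 3.82%, 26% and 16.4% were called in these, and 36.5% between the HDC-KO pools.

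Downstream of the adaptors, 17 kinases, linkers and enzymes were tested. Of these, 1 rose between the marrow pools, 2 between the tumor pools, 1 from wild-type marrow to tumor and 3 in the HDC-KO pools, and none fell. Fyn was also called from wild-type marrow to tumor, with both means under log2 5. The shares called were 5.88%, 11.8%, 11.8% and 17.6%, against 3.82%, 26%, 16.4% and 36.5% of all genes. The list medians were 0.07, 0.18, -0.02 and 0.03. Pik3ap1, an adaptor of phosphoinositide 3-kinase, was the 1 called in marrow, 8.58-fold higher in HDC-KO. Fyn, a Src-family kinase abundant in T cells, was at least 7.03-fold higher in labelled HDC-KO than in wild-type tumor. Lat2, a linker that binds Syk-pathway partners, was at least 1.19-fold higher there. Fyn and Lat2 were under log2 5 in every other pool. They passed the filter only through labelled HDC-KO tumor, so their rises there were set by the filter. Syk itself had means of 10.69, 10.74, 10.77 and 10.95.

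Among 10 phosphatases and other brakes, 0 were called between the marrow pools by limma, with 2 at an unadjusted p under 0.05. Between tumor pools 1 rose and 1 fell, from wild-type marrow to tumor 1 rose, and in the HDC-KO pools 2 rose. Cblb, a ubiquitin ligase that restrains signalling, was 4.38-fold higher in labelled HDC-KO than in wild-type tumor, and Dok2, an inhibitory adaptor, was 4.31-fold lower. Ubash3b, a phosphatase that acts on Syk, was 2.24-fold higher in labelled HDC-KO tumor than in HDC-KO marrow. Ptpn6, which encodes SHP-1, the phosphatase recruited by CD300a, had means of 11.94, 12.08, 12.01 and 12.11. The list medians were 0.07, 0.21, 0.00 and 0.09. Calls made up 0%, 20%, 10% and 20% of the list, against 3.82%, 26%, 16.4% and 36.5% of all genes.

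**Figure D4:**
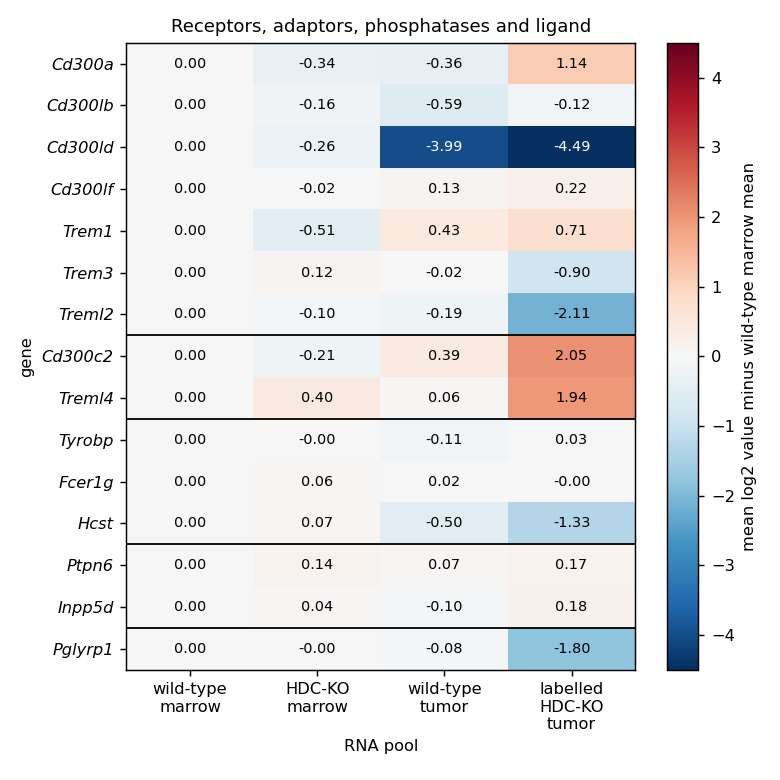
Mean log2 value in each pool (columns) minus the wild-type marrow mean, for the members, 2 other family genes, adaptors, phosphatases and Pglyrp1 (rows), with the value in each cell. Cd300ld is at -3.99 and -4.49 in the tumor pools, while Tyrobp and Fcer1g lie between -0.11 and 0.06.

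Other receptors of the same signalling type split in the labelled HDC-KO tumor pool. Of 13 tested inhibitory receptors, 1 rose and 1 fell between the marrow pools, 3 rose and 1 fell between the tumor pools, 1 rose and 2 fell from wild-type marrow to tumor, and 4 rose and 2 fell in the HDC-KO pools. Lair1, a collagen receptor, was 2.89-fold higher in labelled HDC-KO than in wild-type tumor and Cd72, a B cell and macrophage receptor, 3.35-fold. Clec4a2, a lectin with an inhibitory motif, was 2.16-fold lower. Siglecf, found on eosinophils and some neutrophils, was 2.02-fold lower in HDC-KO than in wild-type marrow. The list medians were 0.07, 0.24, 0.05 and 0.26. Called shares were 15.4%, 30.8%, 23.1% and 46.2% of the list, against 3.82%, 26%, 16.4% and 36.5% of all genes.

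Of 7 tested activating receptors that pair with DAP12 or the gamma chain, 1 fell between the marrow pools, 1 fell between the tumor pools, 1 rose from wild-type marrow to tumor, and 4 rose and 1 fell in the HDC-KO pools. Clec5a, a DAP12-paired lectin, had means of 11.23, 11.54, 11.13 and 9.40 and was 3.31-fold lower in labelled HDC-KO than in wild-type tumor. Clec4n, which encodes dectin-2, was 12.4-fold higher in wild-type tumor than in wild-type marrow and at least 3.32-fold lower in HDC-KO than in wild-type marrow. The list medians were -0.34, 0.31, 0.06 and 1.06. With 7 genes, 14.3%, 14.3%, 14.3% and 71.4% were called, against 3.82%, 26%, 16.4% and 36.5% of all genes.

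Pglyrp1, a neutrophil granule protein proposed as a ligand of TREM1, was lower where Treml2 and Trem3 were. It had means of 12.95, 12.95, 12.88 and 11.16, a 3.29-fold fall between the tumor pools (limma, adjusted p = 2.9e-06). Of 6 tested genes on the list of proposed ligands and related factors, 1 fell between the marrow pools, 1 rose and 1 fell between the tumor pools, 2 rose from wild-type marrow to tumor, and 3 rose and 1 fell in the HDC-KO pools. Cirbp, a cold-inducible protein that binds TREM1 outside the cell, was 2.75-fold lower in HDC-KO than in wild-type marrow and 2.53-fold higher in labelled HDC-KO than in wild-type tumor. Hspa1b, a heat shock protein, was at least 23.0-fold higher in wild-type tumor than in marrow. Hspa1b and its relative Hspa1a, the 2 that rose there, were under log2 5 in both marrow pools. They passed the filter only through tumor arrays, so their rise was set by the filter. The list medians were 0.01, -0.02, 0.05 and 1.42, the last 0.71 with means raised to log2 5. With 6 genes, 16.7%, 33.3%, 33.3% and 66.7% were called, against 3.82%, 26%, 16.4% and 36.5% of all genes.

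Inflammatory genes that TREM1 engagement is known to raise were also listed, of which Ccl7 and Csf2 were under log2 5 in all pools. Of 14 tested, 14 rose from wild-type marrow to tumor and 13 in the HDC-KO pools, with medians of 6.10 and 7.58, or 5.13 and 5.63 with means raised to log2 5. Il6, Il1a, Cxcl1, Cxcl3, Ccl2, Ccl3, Ccl4, Icam1 and Cd40 had both marrow means under log2 5. They passed the filter only through tumor arrays, so their rise was set by the filter. The tissue counts and shares of this list are therefore no support for a rise. Cxcl3 was at least 318-fold and Ptgs2 276-fold higher in wild-type tumor than in wild-type marrow. Between the marrow pools 3 fell, among them Cxcl2 at least 5.46-fold and Il1b 2.12-fold, while 2 more, Cxcl3 and Ccl3, were called with both means under log2 5. Between the tumor pools 2 rose and 1 fell. For marrow genotype, tumor genotype, wild-type tissue and HDC-KO tissue, 3.82%, 26%, 16.4% and 36.5% of all genes were called. On this list 35.7%, 21.4%, 100% and 92.9% were, Cxcl3 and Ccl3 in marrow included. The median was -0.33 between the marrow pools, or 0.00 with means raised, and 0.02 between the tumor pools. These genes answer to many signals, and whether their rise is tied to Trem1 was not tested. Monocyte and macrophage markers rose in the same comparisons, 9 of 9 in each, with Mertk, Cx3cr1 and C1qa under log2 5 in both marrow pools.

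The tested genes outside both families whose array values ran closest to each member were found by Euclidean distance over the 8 arrays, each gene centred on its own mean. For Cd300a they were Bfar, Rasa3 and B9d2, with Pearson's r of 0.99 to 1.00. For Cd300ld they were Itgb3, the beta chain of an integrin, Rab44 and Vill, at r of 0.98 to 0.99, and Itgb3 had means of 8.55, 8.32, 4.92 and 3.71. For Trem1 they were Basp1, Eci2 and Immt, for Trem3 Rdx, Arhgdib and Aprt, and for Treml2 Mxd3, Kif22 and AW209491. Kif22 is a mitotic kinesin and Mxd3 a factor of proliferating cells. These likenesses rest on 4 pools of 2 technical arrays, and among 8174 genes many share any such pattern. Cd300lb and Cd300lf spanned less than 1 on the log2 scale and were not matched.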

How the data were processed

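The authors' deposited values were log2 expression values of 45101 probe sets on 8 arrays, normalized with GCRMA (submitters' processing notes). Their range, 0.75 to 15.3, shows the log2 scale. Of software version, detection calls and build, nothing is given in the sources used here. Arrays were grouped by title into 4 pools of 2 technical arrays. The number of arrays limits the precision, and averaging each pair would leave no test. Probe sets were named from the supplied platform annotation: 34958 had 1 gene symbol, 932 several and 9211 none. Each of 18194 genes was read by its brightest probe set over all arrays. Genes reaching log2 5 on 2 or more arrays, 8174 in number, entered limma 3.58.1 in R 4.3.3 (lmFit, eBayes; all 8 arrays, 4 groups, 4 residual and 2.14 prior degrees of freedom), checked on simulated data. A further fit tested 13505 probe sets as rows of their own. Folds against a mean under log2 5 are bounds with that mean raised to 5.

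The members and lists were chosen with earlier results of these data known. Named from each list were up to 3 called genes per contrast with the largest difference after raising; not all are named, and Itgam, Syk, Tyrobp, Fcer1g, Ptpn6 and Cd300c2 were added for their role. The 3 closest genes were taken for members spanning at least 1. Alternatives were other filters, normalizations, probe set choices, variance models, a replicate block, the compared groups alone, and each array left out. Tables were made with Python 3.11.15 and pandas 2.3.3.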

Additional observations from a re-analysis of the deposited data

Results flagged for a closer look

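These results had a genotype difference that itself differed between marrow and tumor (limma, tumor effect minus marrow effect on the log2 scale). They rest on the pool labelled HDC-KO tumor, whose Hdc level went against its label, and no explanation was tested. For Cd300a the effects were -0.34 in marrow and 1.50 in tumor, a difference of 1.84. For Treml2 they were -0.10 and -1.92, a difference of -1.82, by its brightest probe set. Its probe set 1440298_at differed by -0.97 and was not called, and 1444718_at differed by -1.69 and was called. Hdc itself, at -3.35 and -0.21, differed by 3.14. Among other family genes Cd300c2 differed by 1.87 and Treml4 by 1.48. The immunoglobulin receptors Pigr and Fcmr gave 3.35 and 3.49, but both marrow means of each, and the wild-type tumor mean of Fcmr, were under log2 5, and the differences were 2.97 and 3.06 with means raised to log2 5. Of the proposed TREM1 ligands Pglyrp1 differed by -1.72 and Cirbp by 2.80.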

How the results depend on the processing

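Of 658 differences of members recomputed under 19 alternatives (18 for the difference of effects), 646 kept their direction and their side of the threshold. Those that reversed were small and uncalled. Median centring turned Cd300lf in marrow to 0.0314 and Cd300lb in the HDC-KO pools to -0.0838, and it shifted all genes by -0.13 in labelled HDC-KO tumor against HDC-KO marrow and by -0.12 in the difference of effects. For Cd300ld, the tumor genotype difference was 0.0421 without array 2 of the labelled HDC-KO tumor pool, and the difference of effects ran from -0.773 without its array 1 to 0.303 without its array 2, and was 0.0632 without wild-type tumor array 2. The difference of effects of Trem3 was called at -1.03 after quantile normalization, -1.11 after median centring, -1.01 without wild-type tumor array 1 and -1.02 without labelled HDC-KO tumor array 2. With the mean of all probe sets 2 members, not 1, were called from wild-type marrow to tumor, the second being Trem1. With every probe set tested, 502, 3300, 2147, 4898 and 3728 were called in the 4 comparisons and the difference of effects, against 312, 2122, 1338, 2986 and 2330 genes. More rows were tested there. Leaving out each array in turn gave 286 to 311, 2122 to 2140, 1333 to 1344, 2986 to 3011 and 2306 to 2348 genes, and 0, 2 to 3, 1, 4 to 5 and 2 to 3 members. The replicate block gave 312, 2122, 1339, 2986 and 2327 genes and changed no member's call. Numbers did not pair the arrays: deviations of same-numbered arrays correlated at -0.015 to 0.0575.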

Other observations

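CD300a and CD300lf recognise phosphatidylserine, the lipid that marks dying cells, and 15 other receptors, bridging proteins and enzymes of its recognition were listed. Of these, 9 were tested and 5 were under log2 5 in all pools. Between the tumor pools 4 rose and 1 fell, from wild-type marrow to tumor 5 rose, and in the HDC-KO pools 7 rose. These 7, Mertk, Axl, Gas6, Pros1, Havcr2, Stab2 and Mfge8, had both marrow means under log2 5. They passed the filter only through tumor arrays, and Gas6 and Stab2 only through labelled HDC-KO tumor. Their rises from marrow, and that of Stab2 between the tumor pools, were set by the filter, so these counts and shares are no support. Mertk between the marrow pools and Gas6 from wild-type marrow to tumor were also called, each with both means under log2 5. Mertk, a kinase receptor of macrophages that clears dying cells, had means of 3.14, 4.22, 6.35 and 9.92 in wild-type marrow, HDC-KO marrow, wild-type tumor and labelled HDC-KO tumor, and was 11.9-fold higher in labelled HDC-KO than in wild-type tumor. Axl, its relative, was 9.16-fold higher there, and Pros1, the bridging protein S, 4.60-fold. Cd300lf, by contrast, spanned 0.25 over the pools. The list medians were 0.07, 0.94, 1.86 and 3.84, or 0.00, 0.94, 0.20 and 1.53 with means raised to log2 5. Shares called, Mertk in marrow and Gas6 included, were 11.1%, 55.6%, 66.7% and 77.8%, against 3.82%, 26%, 16.4% and 36.5% of all genes. Mertk is also one of the macrophage markers, 6 of 9 of which rose between the tumor pools.

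Of 8 listed neighbours of the CD300 cluster outside the family, 3 were tested. Rab37, a vesicle-trafficking gene, was the 1 called, 2.27-fold lower in labelled HDC-KO than in wild-type tumor and 3.01-fold lower than in HDC-KO marrow. In the other comparisons of 2 pools none was called by limma, with 0 at an unadjusted p under 0.05 in marrow and 3 in the wild-type tissue comparison. The medians of the 3 were -0.11, -0.23, -0.39 and -0.52. Calls were 0%, 33.3%, 0% and 33.3% of the 3, against 3.82%, 26%, 16.4% and 36.5% of all genes.

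Values of other cells' markers were as follows on the labelled HDC-KO tumor arrays, as mean log2 values over the tested genes: 9.20 to 9.21 for 3 dendritic cell genes, 7.60 to 7.89 for 6 T and NK cell genes, 12.08 to 12.09 for 5 B and plasma cell genes, 3.55 to 3.77 for 5 basophil and mast cell genes, 5.80 to 6.11 for 3 eosinophil genes and 7.65 to 8.29 for 2 platelet genes. On the wild-type tumor arrays they were 6.40 to 6.42, 6.03 to 6.09, 10.30 to 10.37, 3.26 to 3.31, 5.55 to 5.72 and 6.27 to 6.48. On the wild-type marrow arrays they were 3.68, 4.53 to 4.90, 8.14 to 8.26, 7.18 to 7.31, 5.78 to 5.83 and 3.81 to 3.93. On the HDC-KO marrow arrays they were 3.55 to 3.59, 5.56 to 5.60, 6.52 to 6.56, 5.15 to 5.17, 5.78 to 5.87 and 4.65 to 4.78. Such means hide opposite moves. Ccr3 was at least 5.67-fold higher and Prg2 at least 3.24-fold lower in labelled HDC-KO than in wild-type tumor. Cd3d was 3.38-fold lower there, while 4 of the 6 T and NK genes were called higher, as were 15.5% of all genes. Of these 4, Cd2, Cd3g and Gzmb were under log2 5 in every other pool. They passed the filter only through labelled HDC-KO tumor, as did Ccr3, so these rises were set by the filter. Between the marrow pools, Cd3d was 28.8-fold higher in HDC-KO and Nkg7 2.08-fold lower. The other T and NK genes tested, Cd3g, Cd2, Gzma and Gzmb, were under log2 5 in both marrow pools, and Cd3e was in all pools.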
